A study of Mus musculus with 8 samples.

Results

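Ptprc, Ighm, Cd79a, Cd79b, Cd3e, Cd3g, Cd4, Cd8a and Lck are genes by which lymphocytes and their antigen receptors are recognised in a tissue. They were followed here in diaphragm, the muscle that drives breathing, from dystrophic and normal mice. The members were all probe sets of the expression array whose platform annotation names exactly 1 gene symbol from these 9 genes. This rule gave 20 of 22626 probe sets that are not controls, for 8 of the 9 genes, among 12393 genes named by such probe sets. Ighm had 11 probe sets, Cd4 and Cd8a had 2 each, and Ptprc, Cd79a, Cd79b, Cd3e and Cd3g had 1 each. No probe set naming Lck alone was found, and Lck was not analysed here. Another 4 probe sets, which name Ighm together with other genes, were left out.

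The dystrophic group was 4 pools of diaphragm from dy/dy mice, a model of muscular dystrophy with deficient laminin, and the normal group was 4 pools from control mice for dy/dy. All mice were 8 weeks old, and each pool held muscle of 3 mice and was hybridised to 1 Affymetrix array. The sources used here do not give strain, sex or how the controls relate to the dy/dy mice. Pooling hides the spread between single mice, and in whole muscle fewer cells of a type and less RNA per cell cannot be told apart.

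Ptprc encodes CD45, a tyrosine phosphatase on the surface of all nucleated blood cells, lymphocytes and macrophages alike. It sets the activity of Src-family kinases such as Lck, which start the signal of the T cell receptor. B cells carry surface IgM, whose heavy chain is the product of Ighm, and signal through the paired chains that Cd79a and Cd79b encode. Plasma cells secrete the same heavy chain. T cells carry the CD3 complex, of which Cd3e and Cd3g encode chains, and most use either CD4 or CD8 as a coreceptor for MHC class II or class I. Healthy skeletal muscle holds few lymphocytes, and dystrophic muscle is known to be invaded by leukocytes.

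One start-site region is shown for each class of member, a leukocyte, a B cell and a T cell gene, so that the genes can be placed in the genome. The stretches are from RefSeq, assembly GRCm38.p6, and are written 5′ to 3′ on the gene's strand. Capitals mark AGGAAGT or its reverse complement ACTTCCT, a core that factors of the ETS family can bind.
Ptprc, chr1:138175392-138175438, minus strand: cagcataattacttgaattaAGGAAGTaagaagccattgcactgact
Cd79a, chr7:24897422-24897468, plus strand: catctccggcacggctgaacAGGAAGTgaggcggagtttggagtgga
Cd3e, chr9:45009603-45009649, minus strand: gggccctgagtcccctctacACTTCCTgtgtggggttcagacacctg
The letters were searched on both strands, from 250 bases before to 50 bases after each start, and they were chosen after the sequences had been seen. They occurred in the windows of 4 of the 6 members that have one, Lck included, and in 3072 of 32851 windows of all genes, which is 9.35%. Such a match describes the letters in the window and is no evidence that a factor binds there.

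The deposited values are MAS5 signals, which are brightness values with a mismatch signal subtracted and no unit of molecules. They were rescaled because normal replicate 4 had a trimmed mean of 400.2 and the other 7 arrays had 500.2. Median signals were then 171.7 to 206.7 per array. Lama2, the gene of laminin α2, fell in dystrophic diaphragm, to 270 ± 46.1 in dystrophic pools against 846 ± 101 in normal pools (SD, n = 4 each). Its log2 difference was -1.60 ± 0.15 (SE, limma adjusted p = 8.91e-04), in the direction of the labels. The 14 genes in the skeletal muscle list, which mark the labelled tissue, summed to 220772.4 to 246658.0 in dystrophic pools and 218174.8 to 332627.9 in normal pools. Atp2a1 and Ckm, the 2 brightest of them, had log2 differences of -0.23 and -0.21, with overlapping groups. Of the 14 genes, 2 had all dystrophic pools above all normal pools (4.7% of genes). In 1 they all lay below (2.53% of tested probe sets). Spike-in controls placed the arrays in 3 sets of like signal, replicate 1 of both groups, replicate 3 of both groups, and replicates 2 and 4 of both groups. The labels name no batch. Dystrophic replicate 3 stood apart by its liver genes, with a summed signal of 80788.4, against 3464.9 to 10793.8 in the other 7 arrays.

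No member probe set passed the test between dystrophic and normal diaphragm. Values were compared as log2(signal + 16), and a difference is the dystrophic mean minus the normal mean on that scale. The call was a limma adjusted p under 0.05 over 13575 probe sets, left after the lowest 40% by mean signal had been removed. Of all probe sets tested, 0.494% were called, 62 (0.457%) higher and 5 (0.0368%) lower in dystrophic pools. Of the 20 members, 7 passed the filter on low values, the probe sets of Ptprc and Cd79a and 5 of those of Ighm, and 0 of these 7 were called. The other 13, for Cd79b, Cd3e, Cd3g, Cd4, Cd8a and the other 6 Ighm probe sets, were too dim. In a fit with no filter, which called 0.234% of probe sets, 0 of the 20 members were called. At an unadjusted p under 0.05, 1 member was higher in dystrophic pools, against 5.6% of all tested probe sets, and 0 were lower, against 4.13%. The 1 member was Ptprc. It was also the 1 member of 20 whose dystrophic pools all lay above its normal pools, against 3.16% of all probe sets, and 0 lay wholly below, against 1.94%.

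**Figure D1:**
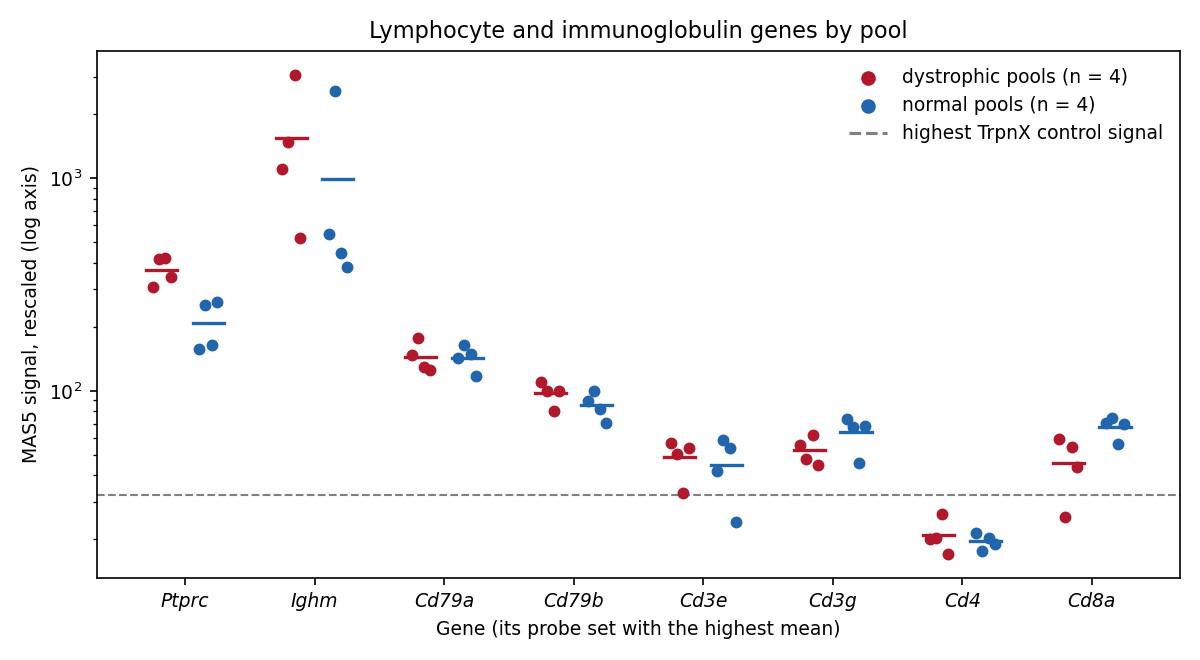
MAS5 signal (log axis) of the brightest probe set of each of the 8 genes in 4 dystrophic pools (red) and 4 normal pools (blue). Each point is a pool, bars are group means, and the dashed line is the highest signal of the TrpnX negative controls, 32.2. Ptprc is the gene whose groups do not overlap, from 306.1 up in dystrophic pools and up to 260.4 in normal pools.

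Ptprc, the gene of CD45, was higher in every dystrophic pool than in any normal pool, and missed the threshold. Its signal was 306.1, 416.5, 420.1 and 341.9 in dystrophic replicates 1 to 4, against 156.7, 252.9, 163.5 and 260.4 in normal replicates 1 to 4. The groups averaged 371 ± 56.4 and 208 ± 55.9 (SD, n = 4 each), a ratio of 1.78. Within the normal group, replicates 2 and 4 were high and replicates 1 and 3 low. The log2 difference was 0.81 ± 0.20 (SE), with a 95% interval of 0.37 to 1.24 and a limma adjusted p of 0.134. The exact permutation p (two-sided) was 0.0286, the lowest value that groups of 4 and 4 pools allow. Within the sets of arrays with like spike-in signal, the difference was 0.90 between the replicates 1, 1.28 between the replicates 3 and 0.53 between replicates 2 and 4. A difference above 0 in each set was fixed in advance, because every dystrophic pool lay above every normal pool. The signs therefore add nothing to that separation.

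Other leukocyte genes lay in the same direction as Ptprc, and none of them passed the test either. Some of them, such as Tyrobp, mark fewer kinds of leukocyte than Ptprc does. Of the 24 genes of the pan-leukocyte list, 22 had a probe set and 14 passed the filter. Among these 14, 0 were called, against 0.597% of the 8214 genes called higher, and all 14 had a difference above 0, against 48.5% of genes. At an unadjusted p under 0.05, 10 of the 14 were higher, against 6.57% of genes. In 10 the groups did not overlap, with the dystrophic pools above, against 4.7% of genes. The median log2 difference of the 14 was 0.65, beside -0.01 over all genes tested.

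Tyrobp, an adaptor of activating receptors on myeloid and natural killer cells, was the gene of this list with the smallest adjusted p. It had 741.0, 628.9, 645.8 and 893.3 in dystrophic pools, against 423.3, 480.7, 365.4 and 406.1 in normal pools, and its limma adjusted p was 0.0552 for a log2 difference of 0.77 ± 0.15 (SE). Coro1a, an actin-binding protein of haematopoietic cells, averaged 298 ± 36.9 in dystrophic pools and 163 ± 24.7 in normal pools, with an adjusted p of 0.0585. Cd53, a tetraspanin of leukocytes, averaged 458 ± 92.5 in dystrophic pools and 260 ± 41.0 in normal pools, with an adjusted p of 0.0855. The dystrophic pools of these 3 genes lay wholly above the normal pools. Fcer1g, the signalling chain shared by several Fc receptors, averaged 257 ± 66.7 in dystrophic pools and 93.7 ± 48.7 in normal pools, with a log2 difference of 1.41 ± 0.34 and an adjusted p of 0.125. Its normal pools, 32.9 to 148.6, lay mostly below the limit of the filter, a signal of 121.9. It passed the filter only through its high dystrophic pools, and the counts of this list include it. Arhgdib had overlapping groups, with 950 ± 99.6 in dystrophic pools and 831 ± 147 in normal pools and a difference of 0.20.

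**Figure D2:**
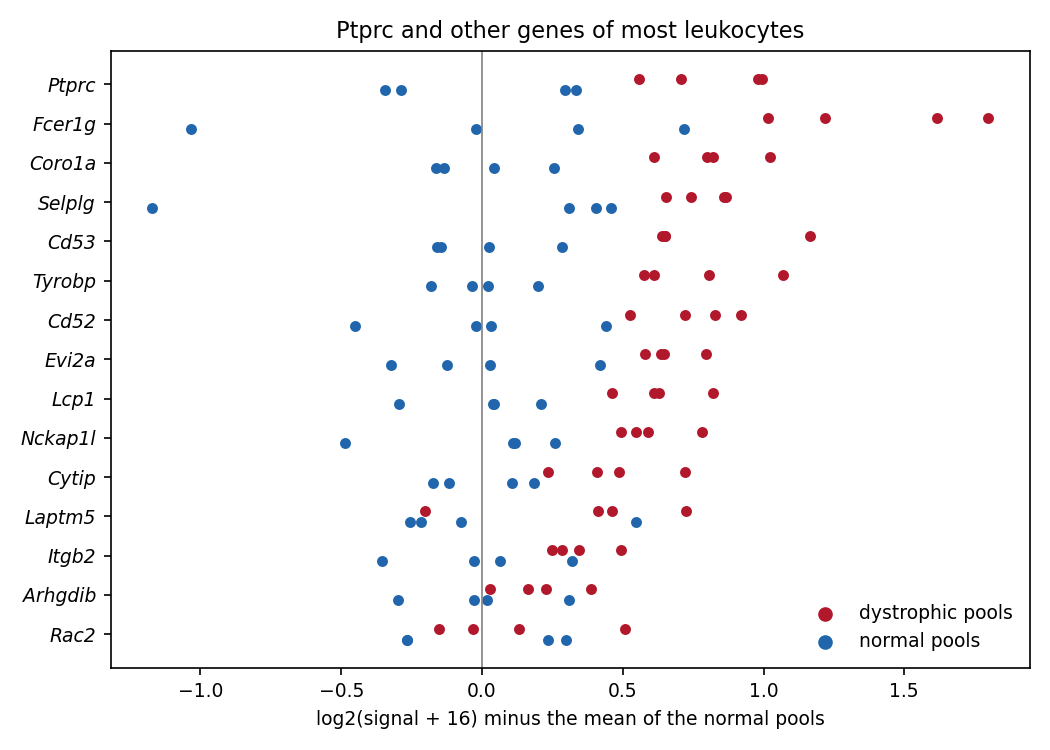
log2(signal + 16) of Ptprc and of the 14 tested genes of the pan-leukocyte list, minus the mean of the normal pools, in each of the 4 dystrophic pools (red) and 4 normal pools (blue). Dystrophic points lie wholly to the right of the normal points for Ptprc and for 10 of the 14 listed genes, and overlap with them for Laptm5, Itgb2, Arhgdib and Rac2.

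Among macrophage genes, 3 passed the test and rose in dystrophic diaphragm. Of the 20 genes of the macrophage list, all had a probe set and 15 were tested. Mpeg1, a pore-forming protein of phagocytes, rose to 531 ± 75.1 in dystrophic pools against 124 ± 52.3 in normal pools (log2 difference 2.03, limma adjusted p = 0.00436). Its normal pools, 70.5 to 193.2, lay around the limit of the filter, a signal of 121.9. It passed the filter only through its high dystrophic pools, and the counts of this list include it. Ctss, a cathepsin of antigen-presenting cells, rose to 955 ± 117 in dystrophic pools against 375 ± 79.2 in normal pools (1.33, adjusted p = 0.00451). Cd68, a lysosomal protein of macrophages, rose to 352 ± 42.6 in dystrophic pools against 173 ± 18.8 in normal pools (0.96, adjusted p = 0.0165). Called higher were thus 3 of the 15, against 0.597% of genes, and the difference was above 0 in 14 of the 15, against 48.5% of genes, with a median of 0.72. The summed signal of the 20 genes was 15954.3 to 21440.8 in dystrophic pools and 9898.9 to 14907.2 in normal pools, and no gene of the list was at or under 32.2 in every pool. CD45 is carried by macrophages as well as lymphocytes, and the part of macrophages in the Ptprc difference was not tested.

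The brightest probe sets of Ighm, the IgM heavy chain gene, were higher on average in dystrophic pools, with a spread inside each group far wider than that difference. Probe set 1427351_s_at, one whose suffix says that its probes can match related transcripts, had 1101.5, 1481.0, 3062.5 and 524.2 in dystrophic replicates 1 to 4, against 548.8, 2567.6, 442.8 and 382.2 in normal replicates 1 to 4. Dystrophic replicate 3 and normal replicate 2 were the 2 highest pools, one in each group, and the groups overlapped. The highest dystrophic pool was 5.84 times the lowest, and the highest normal pool 6.72 times the lowest. The groups averaged 1542 ± 1087 and 985 ± 1057 (SD, n = 4 each). The log2 difference was 0.85 ± 0.60 (SE), with a 95% interval of -0.46 to 2.16 and a limma adjusted p of 0.708.

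Probe set 1427329_a_at gave the same 2 high pools. It had 613.9, 789.8, 1361.4 and 296.3 in dystrophic pools, against 233.0, 1402.9, 173.3 and 244.8 in normal pools. Its log2 difference was 0.91 ± 0.59 (SE), with a 95% interval of -0.38 to 2.2 and an adjusted p of 0.677. Here normal replicate 2 was the highest pool and dystrophic replicate 3 the next. Within the spike-in sets, the difference of 1427351_s_at was 0.98 between the replicates 1, 2.75 between the replicates 3 and -0.17 between replicates 2 and 4, and that of 1427329_a_at was 1.34, 2.86 and -0.28. The direction thus differed between sets. Without normal replicate 2, the difference was 1.46 for 1427351_s_at and 1.57 for 1427329_a_at, and without dystrophic replicate 3 it was 0.43 and 0.57. Without normal replicate 4 and dystrophic replicate 3 together it was 0.14 and 0.42, and with array weights 0.35 and 0.47, with no call in any of these fits.

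The other 3 Ighm probe sets that passed the filter differed from these and from one another. Probe set 1427870_x_at, whose probes can also match other sequences, had 362.9, 316.0, 334.5 and 262.8 in dystrophic pools, against 274.1, 284.5, 230.4 and 210.0 in normal pools. Its difference was 0.34 ± 0.16 (SE, limma adjusted p = 0.530), with 3 of 4 dystrophic pools above all normal pools. Probe set 1452535_at had 108.9, 138.9, 219.1 and 111.3 in dystrophic pools, against 158.1, 262.3, 77.7 and 146.7 in normal pools. Normal replicate 2 and dystrophic replicate 3 were again its highest pools, at low signal, and its difference was -0.09 ± 0.32. Probe set 1425247_a_at had 171.5, 139.5, 100.1 and 107.2 in dystrophic pools, against 146.3, 114.2, 202.9 and 122.5 in normal pools, a difference of -0.15 ± 0.23. In it dystrophic replicate 3, a high pool elsewhere, was the lowest of all 8. The 6 Ighm probe sets that were too dim to be tested lay at 2.5 to 104.6 in single pools, with differences of -0.18 to 0.50. Together with both Cd4 probe sets and 1 of Cd8a, 2 of them make the 5 members that were at or under the highest negative control, 32.2, in every pool. Of the 11 Ighm probe sets, 7 had a difference above 0 and 3 below 0. All of them share the RNA of the same pools, and they are not replicates of each other.

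Jchain and Igkv8-30, the 2 genes with the highest Pearson r with Ighm 1427351_s_at, are both antibody genes. Igha and Igk, also antibody genes, had other high pools, Ighg3 shared only the normal one, and Iglv1 had the same ones. Jchain, the joining chain of polymeric IgM and IgA, had 217.7, 396.4, 589.0 and 149.2 in dystrophic pools, against 107.4, 573.3, 129.3 and 135.0 in normal pools. Its log2 difference was 0.65 ± 0.50 (SE, limma adjusted p = 0.744). Igkv8-30, a kappa light chain variable gene, had 273.8, 444.5, 650.1 and 167.4 in dystrophic pools, against 136.6, 543.6, 109.9 and 182.6 in normal pools. Dystrophic replicate 3 and normal replicate 2 were the highest pools of their groups in both genes. Over the 8 pools, and among 8213 other genes, these 2 had the highest Pearson r with Ighm 1427351_s_at, 0.968 for Jchain and 0.956 for Igkv8-30, followed by Zcchc8 at 0.913. Igha, the IgA heavy chain gene, had 161.4, 222.3, 197.1 and 108.0 in dystrophic pools, against 170.4, 152.9, 157.3 and 69.2 in normal pools. Igk, a kappa light chain entry, had 201.9, 156.7, 146.9 and 99.7 in dystrophic pools, against 142.5, 140.5, 203.1 and 133.7 in normal pools. In both genes the highest pool of each group was another than in Ighm. Iglv1, a lambda light chain gene, was too dim for the filter. It had 29.8, 58.1, 117.7 and 42.8 in dystrophic pools, against 13.1, 121.6, 23.2 and 23.8 in normal pools. Dystrophic replicate 3 and normal replicate 2 were the highest pools of their groups in Iglv1, as in Ighm. The 8 pools include both groups and share each array's scaling. Probe sets of antibody chains can also hybridise to related chains.

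**Figure D3:**
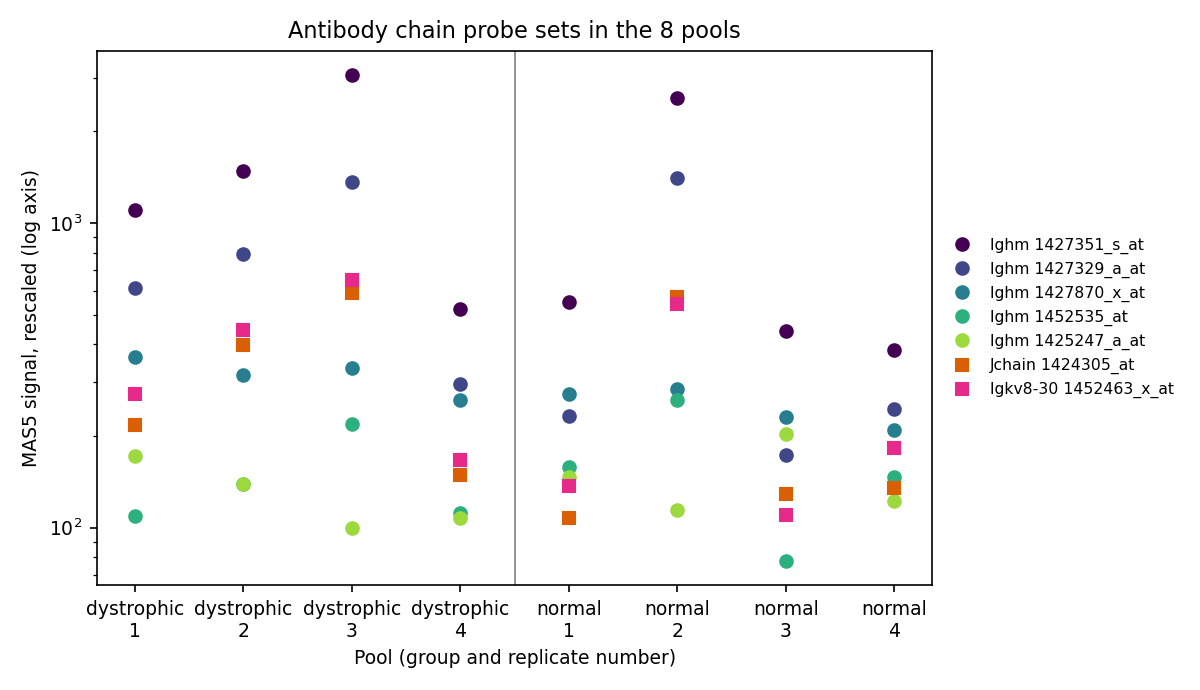
MAS5 signal (log axis) of the 5 Ighm probe sets that passed the filter (circles), and of Jchain and Igkv8-30 (squares), in dystrophic replicates 1 to 4 and normal replicates 1 to 4. Ighm 1427351_s_at, Ighm 1427329_a_at, Jchain and Igkv8-30 have their highest points in dystrophic replicate 3 and normal replicate 2.

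Within each group, the same pool as in Ighm was the highest in Alb and in the summed signal of liver genes. The order of all 8 pools differed, and not every liver gene had the same high pools. Alb, the gene of serum albumin, had 3244.8, 905.1, 18038.5 and 2453.7 in dystrophic pools, against 579.7, 1347.2, 521.0 and 553.5 in normal pools, so that dystrophic replicate 3 and normal replicate 2 were again the highest of their groups. Cyp2e1, a liver enzyme, had 2493.3, 3635.4, 8777.4 and 1895.7 in dystrophic pools, with replicate 3 again the highest. It had 1350.6, 1689.6, 1969.3 and 2158.8 in normal pools, with replicate 4 the highest. The summed liver signal was 80788.4 in dystrophic replicate 3 and 7733.0 in normal replicate 2, and 3464.9 to 4313.6 in the other normal pools. Dystrophic replicates 1, 2 and 4 had liver sums of 10793.8, 6071.8 and 7940.6, so that replicates 1 and 4 lay above normal replicate 2, while replicate 4 was the lowest dystrophic pool for Ighm. None of the 14 liver genes was at or under 32.2 in every pool. Of 11 liver genes tested, 0 were called, against 0.597% of genes called higher, and the median difference was 1.65. All 11 had a difference above 0 (48.5% of genes), and 4 were higher at an unadjusted p under 0.05 (6.57% of genes). In 0 of the 11 the dystrophic pools all lay above the normal pools (4.7% of genes). The part of liver RNA in the Ighm values was not tested.

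In the list of immunoglobulin and plasma cell genes, 12 of 22 genes had a probe set and 7 were tested. None was called, against 0.597% of genes called higher. At an unadjusted p under 0.05, 1 was higher (6.57% of genes), and 5 of the 7 had a difference above 0 (48.5% of genes), with a median of 0.32. In 1 of the 7 the dystrophic pools all lay above the normal pools (4.7% of genes). Sdc1, syndecan 1, which plasma cells and epithelia carry, averaged 287 ± 70.8 in dystrophic pools and 183 ± 31.4 in normal pools. Its groups were barely separate, with 219.7 in the lowest dystrophic pool and 219.0 in the highest normal pool. Its log2 difference was 0.59 ± 0.20 (SE), and limma gave an adjusted p of 0.301. Xbp1, a transcription factor of secretory cells, had 5811.0, 3082.1, 3440.4 and 3419.1 in dystrophic pools, against 5349.7, 3716.3, 3369.8 and 2435.8 in normal pools, a difference of 0.09. Replicate 1 was the highest pool of both groups. The summed signal of the list, in which Xbp1 is a large part, was 4435.2 to 7154.2 in dystrophic pools and 3375.9 to 6502.4 in normal pools.

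Cd79a and Cd79b, the signalling pair of the B cell receptor, showed no difference that the test could call. Cd79a had 146.9, 176.8, 130.0 and 125.5 in dystrophic pools, against 141.8, 164.2, 149.5 and 117.1 in normal pools. Replicate 2 was the highest pool of both groups and replicate 4 the lowest of both. The log2 difference was 0.01 ± 0.18 (SE), with a 95% interval of -0.39 to 0.42 and a limma adjusted p of 0.993. Of the 2 high pools of Ighm, dystrophic replicate 3 was below the mean of its group in Cd79a, and normal replicate 2 was the highest normal pool. Cd79b was too dim for the filter, with 110.1, 99.4, 80.7 and 99.4 in dystrophic pools, against 89.4, 99.5, 82.0 and 70.2 in normal pools. The groups overlapped, with a difference of 0.16 and an exact permutation p of 0.2857.

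B cell genes as a list lay on both sides of 0. Of the 28 genes, 25 had a probe set and 9 were tested. None was called, against 0.597% of genes called higher. At an unadjusted p under 0.05, 2 were higher (6.57% of genes), 4 of 9 had a difference above 0 (48.5% of genes), and the median was -0.02. In 2 of the 9 the dystrophic pools all lay above the normal pools, against 4.7% of genes. Cd24a, a surface glycoprotein of immature B cells that other cell types also carry, had 1246.9, 1247.5, 1102.2 and 1065.3 in dystrophic pools, against 712.8, 905.4, 676.3 and 713.9 in normal pools. The groups did not overlap, and the difference was 0.63 ± 0.13 (SE, limma adjusted p = 0.0777). Ly86, the partner of the CD180 receptor on B cells and myeloid cells, averaged 230 ± 68.8 in dystrophic pools and 130 ± 39.2 in normal pools (0.76 ± 0.27, adjusted p = 0.349), also without overlap. Ms4a1, which encodes CD20 and is close to a B cell gene alone, averaged 147 ± 37.5 in dystrophic pools and 153 ± 34.5 in normal pools. Cd22, an inhibitory coreceptor of B cells, averaged 175 ± 49.2 in dystrophic pools and 209 ± 23.2 in normal pools. Pax5, a B cell transcription factor, was at or under 32.2 in every pool. Bcl6, a repressor in germinal centre B cells and other tissues, averaged 432 ± 81.0 in dystrophic pools and 565 ± 157 in normal pools, a difference of -0.35 with an adjusted p of 0.639.

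**Figure D4:**
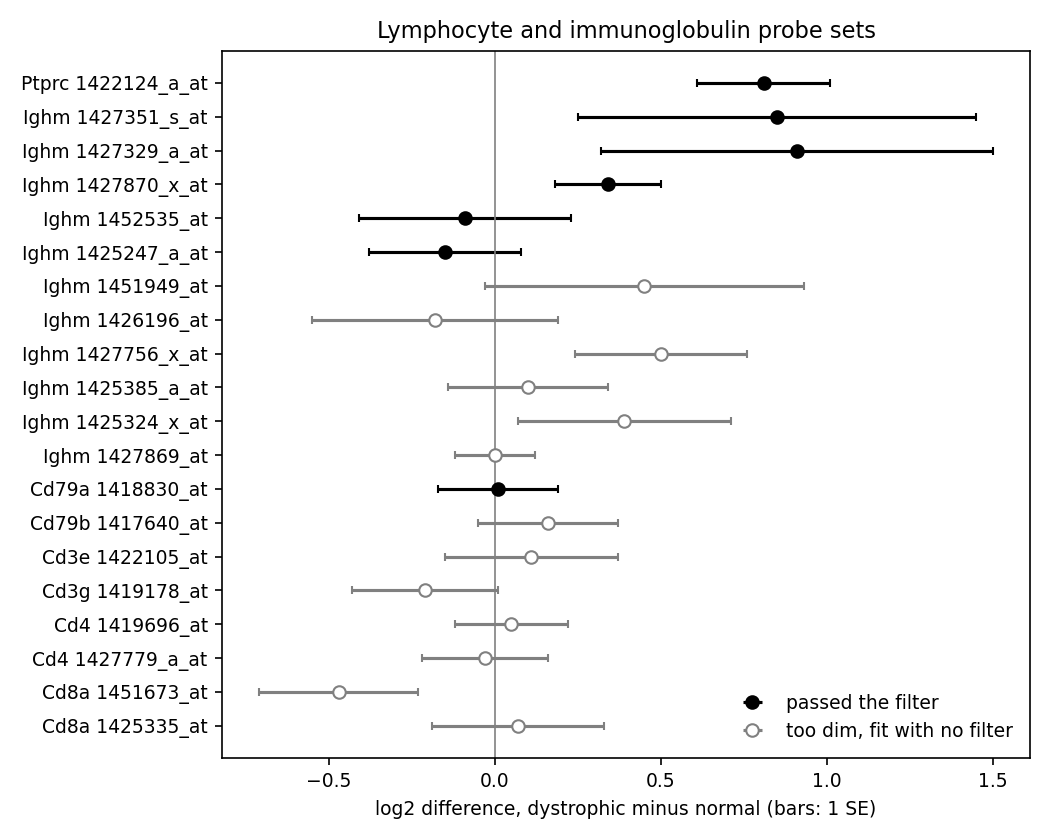
log2 difference, dystrophic minus normal, of the 20 member probe sets, with bars of 1 SE. Filled points passed the filter on low values and open points come from the fit with no filter. Ptprc lies at 0.81 with a short bar, the 2 brightest Ighm probe sets at 0.85 and 0.91 with long bars, and Cd79a at 0.01.

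All T cell members were dim. Their 6 probe sets, for Cd3e, Cd3g, Cd4 and Cd8a, lay between 3.9 and 74.6 in single pools, below the limit of the filter, which corresponds to a signal of 121.9. The TrpnX negative controls reached 32.2 and the median of all probe sets was 192.2. Cd3e, a chain that T cell receptors need to reach the surface, had 57.0, 50.4, 33.1 and 53.9 in dystrophic pools, against 42.0, 58.9, 53.7 and 24.1 in normal pools. Cd3g, its partner in the complex, had 55.6, 47.9, 61.9 and 44.8 in dystrophic pools, against 73.4, 67.6, 45.7 and 68.6 in normal pools. The groups overlapped in both, with differences of 0.11 for Cd3e and -0.21 for Cd3g and exact permutation p values of 0.6571 and 0.2.

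Cd4, which helper T cells and some macrophages express, was under the highest negative control in all pools with both of its probe sets. The brighter, 1419696_at, had 20.1, 20.3, 26.3 and 17.1 in dystrophic pools, against 21.5, 17.6, 20.4 and 19.1 in normal pools. Its second probe set, 1427779_a_at, lay between 3.9 and 15.0 in the 8 pools. At such signals no level can be read. Cd8a, the coreceptor of cytotoxic T cells, had 59.6, 25.4, 54.3 and 43.8 in dystrophic pools, against 70.6, 74.6, 55.9 and 69.6 in normal pools with probe set 1451673_at. The dystrophic pools were mostly lower, with overlap at dystrophic replicate 1 and normal replicate 3. The log2 difference was -0.47, the exact permutation p 0.0571 and the limma adjusted p in the fit with no filter 0.691. The second Cd8a probe set, 1425335_at, lay at 4.8, 14.1, 12.8 and 29.2 in dystrophic pools and 20.9, 4.9, 12.2 and 14.6 in normal pools, all under the highest negative control. A change in T cells was not detectable at these signals, which is no evidence that T cells were absent.

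Other T cell genes were also mostly too dim to test. Of 38 genes, 25 had a probe set and 3 were tested. None was called (0.597% of genes called higher), 1 of the 3 was above 0 (48.5% of genes), and the median was -0.01. Cd3d, Ccr7, Sh2d1a, Bcl11b and Trat1 were at or under 32.2 in every pool. Zap70, a kinase downstream of the T cell receptor, averaged 838 ± 117 in dystrophic pools and 897 ± 241 in normal pools, a difference of -0.07. Icos, a costimulatory receptor, averaged 127 ± 28.1 in dystrophic pools and 137 ± 64.6 in normal pools, a difference of -0.01. The summed signal of the 25 genes was 1740.4 to 2211.5 in dystrophic pools and 1577.6 to 2274.9 in normal pools, with wide overlap. Zap70 is a large part of this sum. For natural killer and cytotoxic genes, 19 of 21 had a probe set and 3 were tested. None was called (0.597% of genes called higher), and the median was -0.04. With 3 tested genes in each of these lists, 0 calls do not tell them from genes at large. Cd160, a receptor of natural killer cells and some T cells, averaged 207 ± 49.5 in dystrophic pools and 179 ± 20.3 in normal pools. Klrg1, an inhibitory receptor, averaged 175 ± 49.9 in dystrophic pools and 180 ± 51.0 in normal pools.

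**Figure D5:**
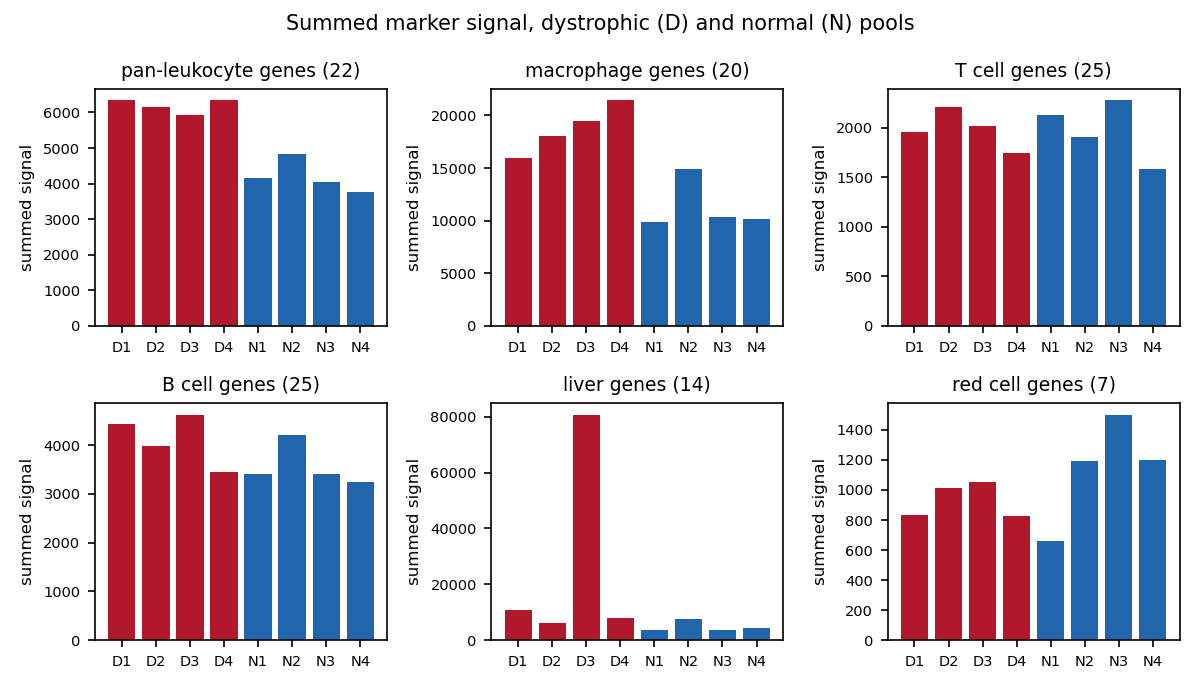
Summed MAS5 signal of the marker genes with a probe set, for 6 lists, in dystrophic pools (D1 to D4, red) and normal pools (N1 to N4, blue), 1 bar a pool, axes from 0. The pan-leukocyte sums are 5926.9 to 6342.4 in dystrophic pools and 3751.1 to 4823.0 in normal pools, the T cell and B cell sums overlap, and liver genes stand out in D3.

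Kinases, phosphatases and adaptors through which antigen receptors signal were mostly bright enough to test, 19 of the 26 with a probe set, from a list of 32. None was called, against 0.597% of genes called higher. At an unadjusted p under 0.05, 1 was higher (6.57% of genes), 14 of 19 were above 0 (48.5% of genes) and the median was 0.08. In 2 of the 19 the dystrophic pools all lay above the normal pools (4.7% of genes). Ptprj, a receptor phosphatase that shares tasks with CD45 in B cells, had a difference of 0.58 ± 0.20 (SE, limma adjusted p = 0.322), with the dystrophic pools above the normal pools. Dok1, an adaptor that restrains receptor signalling, had a difference of 0.36 ± 0.19 (adjusted p = 0.564), also without overlap. Syk, the kinase that binds the chains of Cd79a and Cd79b, had a difference of 0.19 ± 0.22 (adjusted p = 0.845). Prkcq and Ptpn11, the brightest genes of the list, differed by 0.02 and -0.18. Many of these genes are used by muscle and other cells as well.

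Lists of other blood cells gave no call, against 0.597% of genes called higher. The median difference was -0.22 over 4 tested dendritic cell genes, 0.16 over 6 neutrophil genes, 0.23 over 5 mast cell genes and -0.29 over 2 red cell genes. It was 0.26 over 2 genes of early lymphoid cells, in which Rag1 and Rag2, the recombinases of developing lymphocytes, were at or under 32.2 in every pool. Of the 2 brightest tested genes of each of these lists, all but Lcn2 had overlapping groups. Differences were -0.26 for Flt3 and 0.0 for Cd83 (dendritic), 0.15 for Ngp (neutrophil), and -0.28 for Cpa3 and -0.02 for Cma1 (mast). They were -0.29 for Alas2 and Hbb-b2 (red cell), 0.05 for Notch1 and 0.47 for Cd1d1 (early lymphoid). The dystrophic pools all lay above the normal pools in 1 of the 6 neutrophil genes (4.7% of genes). They all lay below in 1 of these 6 and in 1 of the 4 dendritic cell genes (2.53% of tested probe sets). Lcn2, a neutrophil protein that other stressed cells also make, averaged 476 ± 45.3 in dystrophic pools and 242 ± 83.3 in normal pools (log2 difference 0.98 ± 0.20, limma adjusted p = 0.0743), with the dystrophic pools all above. Mmp9, a gelatinase of neutrophils and other cells, averaged 135 ± 37.8 in dystrophic pools and 215 ± 24.0 in normal pools, with the dystrophic pools all below (-0.65 ± 0.22, adjusted p = 0.305). Itgae, the integrin of resident T cells and some dendritic cells, had 100.6 to 149.9 in dystrophic pools and 166.5 to 201.0 in normal pools, with the dystrophic pools all below and a difference of -0.62 ± 0.18 (adjusted p = 0.223).

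Patterns most like those of Ptprc and Cd79a were found in genes of other kinds. Over the 8 pools, Ptprc had its highest Pearson r with Zfp703, 0.977, Kcnc4, 0.962, and Ccn2, 0.949. Zfp703 encodes a zinc finger protein, Kcnc4 a potassium channel and Ccn2 a matrix-associated growth factor. After the group means were removed, r was 0.957, 0.893 and 0.835, so that these genes also followed the pools within the groups. Cd79a was most like Olfr70, an olfactory receptor gene, at 0.981, Shc1, an adaptor, at 0.954, and Dnmt1, a DNA methyltransferase, at 0.938. Ptprc and Ighm 1427351_s_at had an r of 0.573. These are the extremes of 8213 values over 8 pools, and they describe these arrays.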

How the data were processed

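Diaphragm RNA from 4 dystrophic and 4 normal pools was measured on 8 Affymetrix arrays. The authors deposited 1 table of linear intensity values, called signals here, for 22690 probe sets, 64 of them controls, made with MAS5 per the submitters' processing notes. The sources used here give neither a MAS5 version nor detection calls. Each array was rescaled to a 2% trimmed mean of 487.7. Tests used log2(signal + 16), on which a dim gene's difference is smaller than its ratio, with limma 3.58.1 (R 4.3.3, intensity trend) over 13575 probe sets left after the lowest 40%, Benjamini-Hochberg adjustment and a threshold of 0.05. Exact permutation tests used scipy 1.17.1 and figures matplotlib 3.10.9 (Python 3.11.15). The fit was tested on simulated data. The number of arrays limits the precision.

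The members, gene lists and settings were chosen with earlier results of these data known. The lists were T cell, B cell, immunoglobulin and plasma cell, NK and cytotoxic, antigen receptor signalling, pan-leukocyte, macrophage, dendritic, neutrophil, mast, red cell, liver, skeletal muscle and early lymphoid genes. Named were every member probe set, up to 4 called or else the 2 brightest tested genes of each list, and the 3 genes most like each tested member. Other genes were named after their values had been seen. For each gene of a list, the probe set of highest mean log2 value was used. Symbols came from the platform annotation (20380 probe sets with 1 symbol, 691 with several, 1555 with none), and 20351 were updated through Entrez identifiers with RefSeq, assembly GRCm38.p6. Alternatives were other offsets, scalings, filters, weights and blocks, and each array left out. No 2 arrays were identical.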

Additional observations from a re-analysis of the deposited data

Results flagged for a closer look

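Among 114 groups of 4 pools, for 57 probe sets, 12 (10.5%) had a pool far from the other 3 by Dixon's ratio of gap to range, at its 95% critical value for 4 samples. The ratio was taken on the signal itself, not on the log2 scale of the tests, and another scale gives other ratios. Chance gives about 5% for normally distributed values, which linear signals need not be. Probe sets on the same arrays are also not independent. Normal replicate 2 stood apart in 7 of the 12 groups, a count partly fixed by the choice of genes, since Jchain, Igkv8-30 and Zcchc8 were included for their likeness to Ighm 1427351_s_at. The ratio was 0.924 for Ighm 1427351_s_at (2567.6 there, against 382.2 to 548.8 in the other normal pools), 0.942 for Ighm 1427329_a_at, 0.941 for Jchain, 0.832 for Igkv8-30, 0.836 for Cd24a, 0.853 for Zcchc8 and 0.929 for Alb (1347.2, against 521.0 to 579.7). Dystrophic replicate 3 stood apart for Alb, at 18038.5, with a ratio of 0.863. Dystrophic replicate 1 stood apart for Xbp1 (0.869), for Cma1, a mast cell protease (0.873), and for Atp2a1, the calcium pump of fast muscle (0.906), and normal replicate 1 for Hbb-b2, a haemoglobin chain (0.92).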

How the results depend on the processing

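The count of member probe sets past the threshold was 0 in the main fit and in all 21 alternatives. The log2 difference of Ptprc was 0.69 to 0.92 over 20 alternatives, with adjusted p 0.0696 to 0.35, and a filter on the lowest 60% left it untested. The 2 brightest Ighm probe sets ranged from 0.14 to 1.46 (1427351_s_at) and 0.42 to 1.57 (1427329_a_at). The mean of the 11 Ighm probe sets was too dim to be tested. The count of all called probe sets, 67, became 127 with array weights, 114 with the spike-in sets as a block, 31 without normal replicate 4 and dystrophic replicate 3, 24 at a threshold of 0.01, and 25 to 61 when 1 array was left out (34 without dystrophic replicate 2, 29 without dystrophic replicate 3, 25 without dystrophic replicate 4). With the replicate number as a block it was 105, and Ptprc had an adjusted p of 0.0907. Deviations of same-numbered pools correlated at 0.484, -0.046, 0.145 and 0.133, so not every pair exceeded 0.1 and the numbers were not taken as pairs, although same-numbered pools also share a spike-in set. Not every pool correlated best with its own number. Alternatives lay on both sides of 0 for 2 of the 7 tested members and for 7 of the 13 dim ones, whose values moved by less than 1 SD between pools. Cd79a, at 0.01, was -0.04 after quantile normalization, -0.00022 after a 75th percentile shift, -0.05 with array weights, -0.03 without normal replicate 4 and dystrophic replicate 3, and -0.08 to 0.08 with 1 array left out. Ighm 1452535_at, at -0.09, was -0.36 to 0.16 with 1 array left out, above 0 without dystrophic replicate 1 (0.02), dystrophic replicate 4 (0.01) or normal replicate 2 (0.16). The cause was not tested. Medians of lists were 0.53 to 0.72 (pan-leukocyte), 0.63 to 0.92 (macrophage), -0.16 to 0.12 (T cell), -0.13 to 0.14 (B cell) and -0.03 to 0.50 (immunoglobulin). Signals near the negative controls limit what the T cell members can show.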

Other observations

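Of 67 genes of the lymphocyte and leukocyte lists that were too dim for the filter, 3 had all dystrophic pools above all normal pools and 1 had them all below, against 3.16% and 1.94% of all probe sets. Those shares include bright probe sets, so they are not shares among dim ones. They were chosen after their values were seen, and none passed the threshold in the fit with no filter. Cd48, a ligand on most leukocytes, averaged 117 ± 29.7 in dystrophic pools and 25.3 ± 19.6 in normal pools (limma adjusted p = 0.116). Cd40lg, a signal of activated helper T cells to B cells, averaged 100 ± 17.7 in dystrophic pools and 37.7 ± 7.66 in normal pools (adjusted p = 0.107). Rhoh, a small GTPase of haematopoietic cells, averaged 59.5 ± 17.6 in dystrophic pools and 19.0 ± 18.7 in normal pools (adjusted p = 0.353). Ncr1, a receptor of natural killer cells, averaged 67.2 ± 12.8 in dystrophic pools and 112 ± 31.8 in normal pools (adjusted p = 0.565). Its highest dystrophic pool and its lowest normal pool were both 83.6 after rounding, so its groups were barely separate. The normal values of Cd48, Cd40lg and Rhoh lie near or under the highest negative control, 32.2.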
